A study of Mus musculus with 8 samples.

Results

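The 8 genes described here form the core of the Lin28 and let-7 pathway: the let-7 blockers Lin28a and Lin28b, the uridylating enzymes Zcchc11 and Zcchc6, the exonuclease Dis3l2, and the let-7 targets Hmga1, Hmga2 and Igf2bp1. They were taken by gene symbol from a table of 13558 transcripts, and all 8 members were present. mRNA was sequenced in 8 libraries of mouse embryonic stem (mES) cells, pluripotent cells of the early embryo kept in culture, and the comparison asked how the genes differ when Trim71 is lost. Of the 4 WT libraries (Trim71 fl/fl), 2 came from clone E3 and 2 from clone 1. Of the 4 KO libraries (Trim71-/-), 3 came from clone E3 and 1 from clone 1. Cells of both groups were C57BL/6 male and derived from cells with the floxed Trim71 allele, and per the study's methods also a Rosa26-CreERT2 allele, a ubiquitous Cre that is switched on by 4-hydroxytamoxifen (4-OHT). Cre removes the last exon of Trim71. Per the labels, KO cells received 500 nM 4-OHT for 2 days and were kept for at least 7 days afterwards. The study's methods state a lower dose, a shorter culture afterwards, and DMSO as the vehicle control. The labels give no 4-OHT for WT cells, so loss of Trim71 cannot be told apart here from exposure to 4-OHT and active Cre. A sort for the stem cell antigen SSEA-1 preceded lysis. The labels name clones and sampling days but not separate derivations, so p-values measure the spread between libraries of 2 clones, part of which may be technical.

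let-7 miRNAs are made from hairpin precursors and restrain growth and stem cell genes in differentiating cells. In mES cells Lin28 proteins bind the terminal loop of the let-7 precursor and recruit the terminal uridylyltransferases Zcchc11 (also called Tut4) and Zcchc6 (Tut7). The added uridine tail marks the precursor for decay by Dis3l2. Mature let-7 in turn binds the 3′UTRs of Lin28a, Lin28b, Hmga2, Igf2bp1 and Trim71 itself, so that Lin28 and let-7 repress each other. The libraries hold polyadenylated mRNA and the table has 0 rows for let-7 miRNAs, so let-7 itself was not analysed here.

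The mature sequences from RefSeq (GRCm38) show the part of let-7 that pairs with its targets. Capitals mark the seed, bases 2 to 8 from the 5′ end, which 10 of 11 family members share.
let-7a-5p: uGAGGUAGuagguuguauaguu
let-7d-5p: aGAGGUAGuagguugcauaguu
let-7e-5p: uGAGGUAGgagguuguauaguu
let-7g-5p: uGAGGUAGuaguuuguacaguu
let-7i-5p: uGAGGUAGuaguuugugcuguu
miR-98-5p: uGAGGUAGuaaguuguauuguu
The remaining member, let-7j (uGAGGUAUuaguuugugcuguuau), has another seed.

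Lin28 proteins recognise the letters GGAG in the precursor's loop. These letters lie between the mature arms in 8 of the 11 let-7 family hairpins for which RefSeq gives both arms. Hairpins without both arms were left out. Capitals mark the letters in the following loops.
Mirlet7a-1: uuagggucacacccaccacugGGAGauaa
Mirlet7c-1: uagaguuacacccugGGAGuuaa
Mirlet7e: gaggaagacacccgaGGAGauca
Mirlet7f-2: uuagggucauaccccaucuuGGAGauaa
Mirlet7c-2: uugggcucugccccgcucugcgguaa
The loop of Mirlet7c-2 does not hold these letters.

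Matches to the seed were searched on the sense strand of each 3′UTR as CTACCTC, and as CTACCTCA for the longer form, which contains the shorter one. Of the 8 members, 5 held at least 1 match in the 3′UTR of their GENCODE transcript, and 3 held none. The 5 members with matches were the blockers and the targets, while the enzymes Dis3l2, Zcchc11 and Zcchc6 had none. Among all 13043 transcripts matched to the annotation, 9.68% held a 7-base match, 3.4% an 8-base match and 1.19% at least 2 matches. A longer 3′UTR holds a match more often. Among transcripts with a 3′UTR of like length (the shorter at least 0.8 times the longer), 15.4% held a match for Lin28a, 25.1% for Lin28b, 8.67% for Hmga1, 17.3% for Hmga2 and 35.4% for Igf2bp1. For the enzymes this share was 3.96% (Dis3l2), 4.5% (Zcchc11) and 10.6% (Zcchc6), so a 3′UTR of their length seldom has one. A match is a run of letters and not a measured binding site.

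The 8-base matches are shown with the bases 5′ of them, since these are the longest matches that the blockers and targets carry. Capitals mark the match, and coordinates are mm10.
Lin28a, chr4:134005189-134005210, minus strand: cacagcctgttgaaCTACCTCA
Lin28a, chr4:134004551-134004572, minus strand: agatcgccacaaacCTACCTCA
Lin28b, chr10:45381022-45381043, minus strand: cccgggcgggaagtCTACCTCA
Hmga2, chr10:120364224-120364245, minus strand: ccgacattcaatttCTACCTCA
Igf2bp1, chr11:95961778-95961799, minus strand: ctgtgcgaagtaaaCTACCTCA
Igf2bp1, chr11:95959357-95959378, minus strand: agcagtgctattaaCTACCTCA
Igf2bp1, chr11:95958763-95958784, minus strand: tataaatggatgaaCTACCTCA
Hmga1 has no 8-base match, and its single 7-base match lies at chr17:27563278-27563299 on the plus strand: cctctgttcacaaaCTACCTCt. Hmga2 and Lin28b each carry a match near the stop codon, 21 nt and 36 nt into the 3′UTR, and the map of 3′UTRs shows how the remaining matches are spread.

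**Figure D1:**
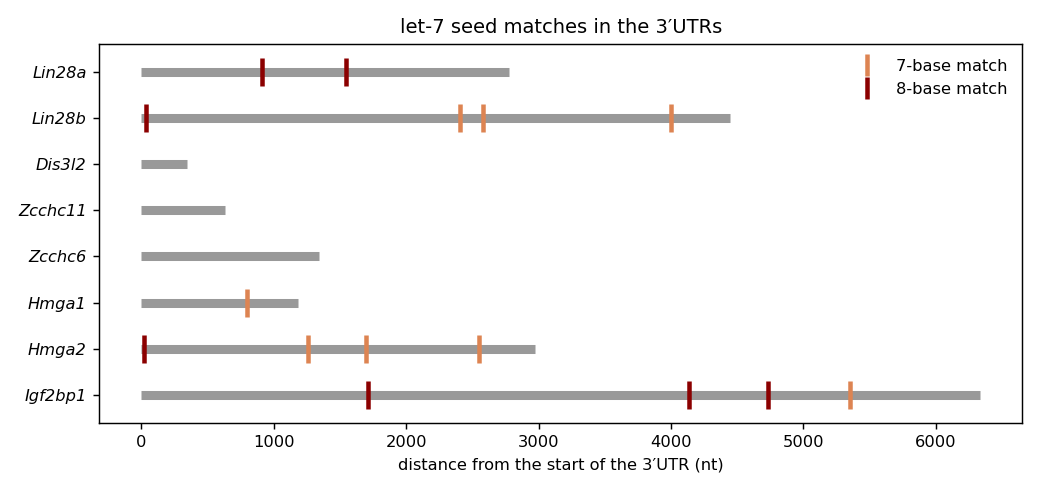
Positions of let-7 seed matches in the 3′UTRs of the 8 members, with the distance from the start of the 3′UTR in nt on the x axis, grey bars to scale for the 3′UTR, and orange and dark red ticks for 7-base and 8-base matches. Lin28b, Hmga2 and Igf2bp1 have 4 matches each, Lin28a has 2, Hmga1 has 1, and Dis3l2, Zcchc11 and Zcchc6 have 0.

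The deposited values are DESeq2-normalized read counts after a batch correction by the authors. The main methods text does not name the batch. That it was the clone was inferred here from shifts of opposite sign in the 2 clones. It is called the clone correction below. Reads recovered from the deposited values came to between 6870756 (WT replicate 2) and 25521715 (WT replicate 3) per library over the deposited transcripts. A member had between 136 reads (Hmga2 in WT replicate 2) and 22005 reads (Igf2bp1 in WT replicate 3) in a library. The targeted gene was checked first: Trim71 lay between 247 and 793 normalized counts in KO and between 1988 and 2782 in WT, and its remaining reads include exons that Cre does not remove. All 9 markers of mES cells fixed for the check were present, with a summed level of 65940 to 91066 normalized counts in KO and 60095 to 80124 in WT. The 4 of 8 fibroblast markers in the table (Col3a1, Postn, Lum and Dcn were not) summed to 96.6 to 178 in KO and 74.6 to 155 in WT. The 7 of 8 primitive endoderm markers in the table summed to 279 to 602 in KO and 92.6 to 474 in WT, the 3 of 6 mesoderm markers to 127 to 155 and 96.2 to 148, and the 5 of 7 neural markers to 719 to 993 and 854 to 1515. By limma (described below), 1 mesoderm and 1 neural marker had an unadjusted p under 0.05, and 0 markers of the other sets. The share over all transcripts was 9.09%. KO replicate 3 stood farthest from the rest, with a median correlation of 0.958 with the other libraries, against 0.964 to 0.983 for the others.

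None of the 8 members differed between KO and WT by the study's criterion, an unadjusted p under 0.05 in a linear model with a fold change of at least 1.5. By limma with genotype and clone as terms, 0 of 8 members met it and 0 had an unadjusted p under 0.05. Of all transcripts 4.25% met it and 9.09% had an unadjusted p under 0.05. After Benjamini-Hochberg adjustment over all transcripts, limma called 0 of 13558, and the smallest adjusted p of a member was 0.58. limma-voom on the recovered reads likewise called 0 of 8 members by the criterion and 0 at an unadjusted p under 0.05. Of the members, 6 had a log2 fold change below 0 and 2 above, with a median of -0.14, where 50% of all transcripts lay below 0. The estimates farthest from 0 were those of Zcchc11, Lin28a and Hmga2. In bulk libraries fewer cells with a transcript and less transcript per cell cannot be told apart.

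Several members are long, and transcripts of different length had different medians. The 2507 transcripts of at least 5000 nt had a median log2 fold change of -0.16, and the 3485 under 2000 nt one of 0.11. With the clone correction undone, each transcript was set against its median over the 8 libraries on the log2 scale, and the median of the long minus that of the short transcripts ran from -0.32 to 0.04 in the KO libraries and from 0.02 to 0.22 in the WT libraries, so that the groups overlapped. Zcchc11 (6054 nt), Zcchc6 (5869 nt), Lin28b (5402 nt) and Igf2bp1 (8378 nt) belong to the long class, and the part of this shift in their values was not tested.

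Lin28a, the main Lin28 protein of mES cells, is encoded by 4 exons on chromosome 4 (134003330 to 134018841, minus strand, mm10). The KO libraries (replicates 1 to 4, here and in the lists of values that follow) had 2721, 2793, 2607 and 2129 normalized counts. The WT libraries had 3963, 4095, 2425 and 3424. Of the WT libraries 3 lay above every KO library, while WT replicate 3 fell inside the KO range, so that the groups overlapped. With the clone correction undone they overlapped too, but the positions differed. WT replicate 3 was then the lowest of all libraries at 2004, and KO replicate 4 the highest KO library at 2550. The means were 2563 ± 299 (SD, n = 4) in KO against 3476 ± 759 (SD, n = 4) in WT. The log2 fold change was -0.42 (SE 0.21, 95% interval -0.91 to 0.06), with an unadjusted p of 0.0781 and an adjusted p of 0.587 by limma. The exact two-sided permutation test over the 70 assignments of the libraries gave p = 0.114, where the smallest possible p is 0.0286.

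WT replicate 3 decided the call for Lin28a. Without it, the log2 fold change was -0.69 with an unadjusted p of 0.0018 and an adjusted p of 0.405 by limma, past the criterion. Its value rests on 4529 reads, in the most deeply sequenced library. Without KO replicate 4 the log2 fold change shrank to -0.22, and no library left out turned the sign. Within clones, with the correction undone, the log2 ratio of KO to WT means was -0.31 in clone E3 and -0.69 in clone 1, which has a single KO library. By day, KO was lower by 0.63 on day 3 and by 0.59 on day 5 on the log2 scale, and the log2 ratio was 0.13 on day 4. An annotated transcript of the other strand, Gm13061, overlaps exons of Lin28a, and the library kit does not keep strand, so their reads cannot be told apart.

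Lin28b, the second blocker, is encoded by 5 exons on chromosome 10 (45376620 to 45486395, minus strand). KO libraries had 519, 609, 237 and 516 normalized counts. WT libraries had 495, 666, 394 and 475. The groups overlapped, and KO replicate 3 was the lowest of all 8 libraries. The log2 fold change of -0.15 (SE 0.34, 95% interval -0.94 to 0.64) had an adjusted p of 0.895 by limma, an interval that holds changes of either sign past the 1.5-fold limit. Its direction turned without KO replicate 3 (0.12) and without WT replicate 2 (0.09).

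Per kilobase of transcript, Lin28a exceeded Lin28b in every library, by between 6.36 and 17.0 times. The ratio ran from 6.36 to 17.0 in KO and from 9.47 to 12.3 in WT, so the KO range enclosed the WT range. The highest ratio, in KO, comes from KO replicate 3, where Lin28b was lowest.

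Zcchc11, the uridylyltransferase that Lin28a recruits to the let-7 precursor, was the only member whose groups did not overlap. It is encoded by 31 exons on chromosome 4 (108459426 to 108559421, plus strand). The KO values were 1072, 1266, 641 and 1037 normalized counts. The WT libraries were close together at 1344, 1371, 1379 and 1340. All 4 KO libraries were below all 4 WT libraries, as for 1 of 8 members, while the groups of 10.1% of all transcripts did not overlap in either direction. The means were 1004 ± 262 (SD, n = 4) in KO against 1358 ± 19.5 (SD, n = 4) in WT. On the log2 scale KO differed by -0.47 (SE 0.22, 95% interval -0.99 to 0.05), with an unadjusted p of 0.0693 and an adjusted p of 0.58 by limma. The exact permutation test, on the deposited values and without a clone term, gave p = 0.0286, the smallest it can give. Groups that do not overlap always give this p, so it adds nothing to the lack of overlap.

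The size of the Zcchc11 difference rested largely on KO replicate 3. Without it the log2 fold change was -0.29, below the 1.5-fold limit, with an unadjusted p of 0.0355 by limma. Without KO replicate 2 it was -0.59, past the criterion, with an unadjusted p of 0.0311 by limma. The tight WT range belongs to the corrected values: with the clone correction undone, WT values were 1551, 1164, 1172 and 1547, split by clone, and KO values were 865, 1059, 434 and 1244. On that scale the groups overlapped, since KO replicate 4 of clone 1 lay above both WT libraries of clone E3, but within each clone every KO library stayed below every WT library. The log2 ratio of means was -0.57 in clone E3 and -0.32 in clone 1. By day the log2 ratio of KO to WT was -0.14 on day 3, -1.43 on day 4 and -0.31 on day 5. With limma-voom and the day as a block over 6 libraries, Zcchc11 passed the criterion, with a log2 fold change of -0.63, an unadjusted p of 0.0473 and an adjusted p of 0.207. It was 1 of 8 members to do so, where 7.98% of all transcripts passed the criterion in that fit and 23.7% had an unadjusted p under 0.05. Without the block, limma-voom on the same 6 libraries gave -0.65 with an unadjusted p of 0.129. With the block but without limma-voom, Zcchc11 did not pass: limma gave -0.53 with an unadjusted p of 0.076 on the deposited values and -0.63 with 0.102 after the correction was undone.

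Zcchc6, the second uridylyltransferase, is encoded by 28 exons on chromosome 13 (59771561 to 59823147, minus strand). The KO libraries gave 890, 909, 595 and 878 normalized counts. The WT libraries gave 825, 866, 983 and 904. Apart from KO replicate 3, the KO libraries lay inside the WT range. The log2 fold change was -0.14 (SE 0.17, 95% interval -0.55 to 0.27) with an adjusted p of 0.801 by limma, and it came to -0.01 without KO replicate 3. Gm49354 and the antisense transcript Etohd2 overlap its exons, so reads may be shared. Per kilobase, the ratio of Zcchc11 to Zcchc6 was 1.04 to 1.35 in KO and 1.36 to 1.58 in WT. The exact permutation test of this ratio gave p = 0.0286, the smallest it can give, and 0.0857 after adjustment over the 3 ratios tested.

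Dis3l2, the exonuclease that degrades uridylated let-7 precursors, is encoded by 21 exons on chromosome 1 (86703808 to 87050095, plus strand). Its KO values were 399, 409, 479 and 413 normalized counts. Its WT values were 416, 317, 422 and 347. The groups overlapped, with 2 WT libraries below all KO libraries and 2 within their range. The log2 change of KO against WT was 0.19 (SE 0.15, 95% interval -0.16 to 0.53) with an unadjusted p of 0.238 and an adjusted p of 0.701 by limma. On days 3, 4 and 5 KO exceeded WT by 0.37, 0.19 and 0.25 on the log2 scale. In the limma-voom fit with the day as a block its log2 fold change was 0.25 with an unadjusted p of 0.0423 and an adjusted p of 0.199, below the 1.5-fold limit, in a fit where 23.7% of all transcripts had an unadjusted p under 0.05.

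**Figure D2:**
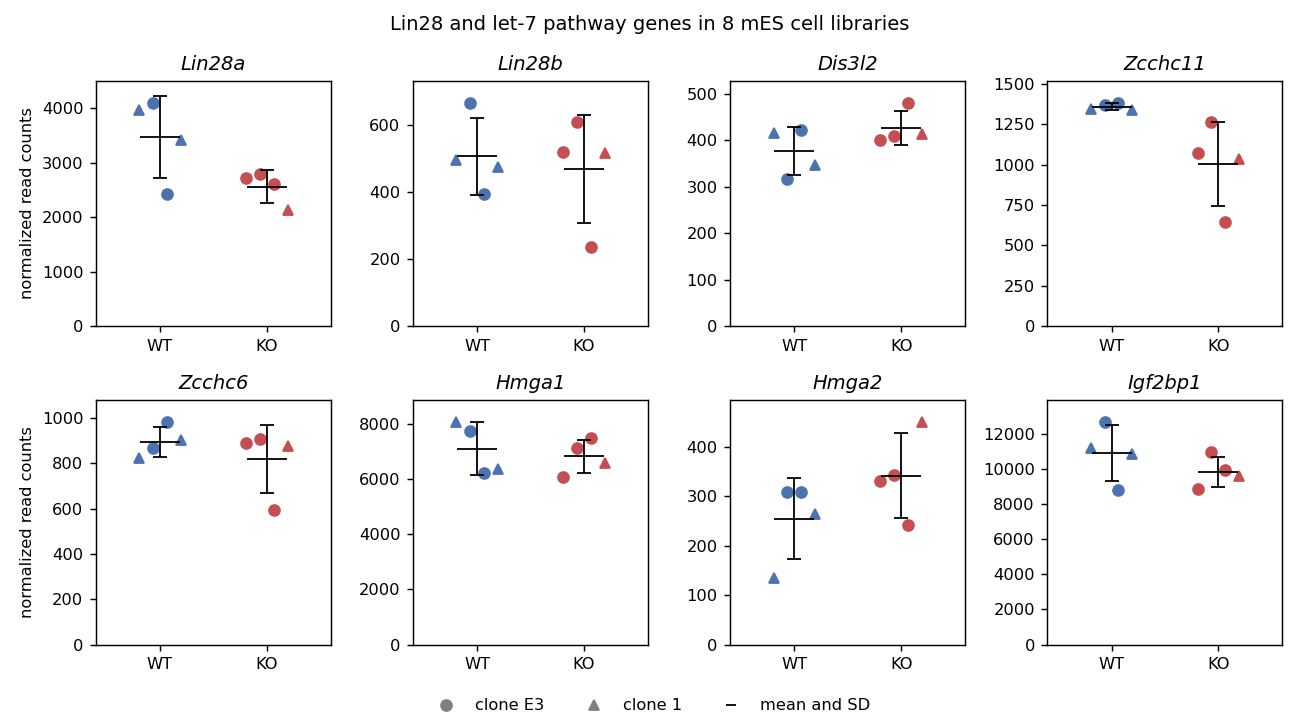
Normalized read counts (y axis, from 0) of the 8 members in the 4 WT and 4 KO libraries, with circles for clone E3, triangles for clone 1, and bars for the mean and SD. Zcchc11 is the only panel in which every KO point lies below every WT point, and KO replicate 3 is the lowest KO point of 4 members (Lin28b, Zcchc11, Zcchc6 and Hmga2).

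Among the let-7 targets, Hmga2, an AT-hook protein that bends chromatin and a classical let-7 target, was the most variable. It is encoded by 5 exons on chromosome 10 (120361275 to 120476469, minus strand). KO values were 330, 342, 241 and 450 normalized counts. WT values were 135, 309, 308 and 264. The groups overlapped, with 3 KO libraries above all WT libraries on these deposited values. With the clone correction undone, only KO replicate 4 lay above all WT libraries. The means were 341 ± 85.3 (SD, n = 4) in KO against 254 ± 81.8 (SD, n = 4) in WT. By limma the log2 fold change was 0.42 (SE 0.33, 95% interval -0.35 to 1.19) with an unadjusted p of 0.236 and an adjusted p of 0.701.

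The Hmga2 estimate rested on clone 1. With the correction undone, clone 1 had 519 normalized counts in its KO library and 205 and 333 in its WT libraries, a log2 ratio of means of 0.95. Clone E3 had 261, 273 and 172 in KO against 240 and 239 in WT, a log2 ratio of -0.02. The difference between the clones, as an interaction of genotype and clone in limma, was 1.28 (SE 0.53) on the deposited, clone-corrected values, with an unadjusted p of 0.05 and an adjusted p of 1. With the correction undone it was 1.04 with an unadjusted p of 0.078. It was 1.24 with an unadjusted p of 0.0419 at a pseudocount of 10. Of all transcripts 2.59% had an interaction with an unadjusted p under 0.05, and none of the 8 members did. For Trim71 the interaction was -1.62 on the deposited values and -0.04 with the correction undone, so the size of an interaction can depend on the correction. Clone 1 has 1 KO library, and without it the log2 fold change of Hmga2 was -0.03. A processed pseudogene, Hmga2-ps1, has 15.6 to 28.8 normalized counts in the table, and the antisense transcript 1700006J14Rik overlaps Hmga2, so its counts are uncertain by the reads they may share.

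Hmga1, the related AT-hook protein, is encoded by 5 exons on chromosome 17 (27556497 to 27563674, plus strand). It reached 6085, 7149, 7481 and 6598 normalized counts in the KO libraries. The WT values were 8087, 7767, 6231 and 6372. The groups overlapped widely, and the log2 fold change was -0.05 (SE 0.15, 95% interval -0.40 to 0.29) with an adjusted p of 0.913 by limma. The interval lies inside the 1.5-fold limit in both directions. The sign turned to 0.06 in the 6 libraries of days 3, 4 and 5. Reads of near-identical copies elsewhere in the genome may be split with it, so its counts are uncertain. AI413582, a gene of the other strand, overlaps its exons as well, and the library kit does not keep strand. It had a mean of 118 normalized counts in KO and 83.8 in WT.

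Igf2bp1, an RNA-binding protein that stabilises mRNAs and carries 4 let-7 seed matches, is encoded by 15 exons on chromosome 11 (95957163 to 96005940, minus strand). Its KO libraries held 8877, 10975, 9984 and 9600 normalized counts. Its WT libraries held 11229, 12716, 8848 and 10854. On these deposited values the lowest was in WT and the highest too, so the KO range lay inside the WT range. With the clone correction undone, the lowest value was 8709 in KO replicate 4 and the highest 13606 in WT replicate 2. The ranges then overlapped, but that of KO was not enclosed. The log2 fold change was -0.14 (SE 0.15, 95% interval -0.49 to 0.22) with an adjusted p of 0.786 by limma, within the 1.5-fold limit. The miRNA gene Mir3063 and the antisense transcript Gm29202 overlap its exons.

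**Figure D3:**
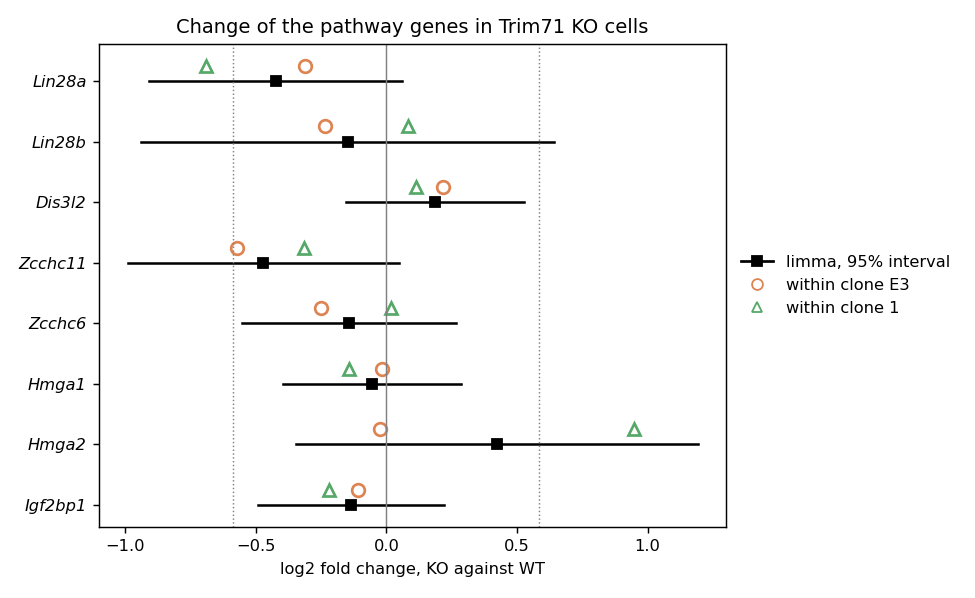
Log2 fold change of KO against WT (x axis) for the 8 members by limma, with 95% intervals as lines, log2 ratios within clone E3 (circles) and clone 1 (triangles) with the clone correction undone, and dotted lines at a fold change of 1.5. All intervals cross 0, and the clones lie farthest apart for Hmga2 (-0.02 and 0.95).

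Levels of different members were compared per kilobase of transcript length, in the WT libraries. Hmga1 was highest at 4232 ± 565 (SD, n = 4) normalized counts per kilobase, followed by Igf2bp1 at 1302 ± 190 (SD, n = 4) and Lin28a at 992 ± 216 (SD, n = 4). The ranges of Igf2bp1 and Lin28a overlapped, and that of Hmga1 lay above both. The enzymes followed, with Zcchc11 at 224 ± 3.22 (SD, n = 4), Zcchc6 at 152 ± 11.5 (SD, n = 4) and Dis3l2 at 122 ± 16.8 (SD, n = 4). Their ranges did not overlap on the deposited values, to which the narrow spread of Zcchc11 also belongs. With the clone correction undone, WT libraries had 740 to 1030 normalized counts of Zcchc6 and 310 to 423 of Dis3l2. Per kilobase, the ranges of Zcchc6 and Dis3l2 then overlapped. Lin28b at 94.0 ± 21.2 (SD, n = 4) overlapped both Dis3l2 above it and Hmga2 below it, which had 68.4 ± 22.04 (SD, n = 4). Among the 13043 matched transcripts, the mean level per kilobase over all libraries of Hmga1 stood at the 99.1 percentile, of Igf2bp1 at the 94.2 and of Lin28a at the 90.6. Zcchc11 stood at the 60.9 percentile, Zcchc6 at the 53.6, Dis3l2 at the 51.0, Lin28b at the 43.1 and Hmga2 at the 40.2.

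**Figure D4:**
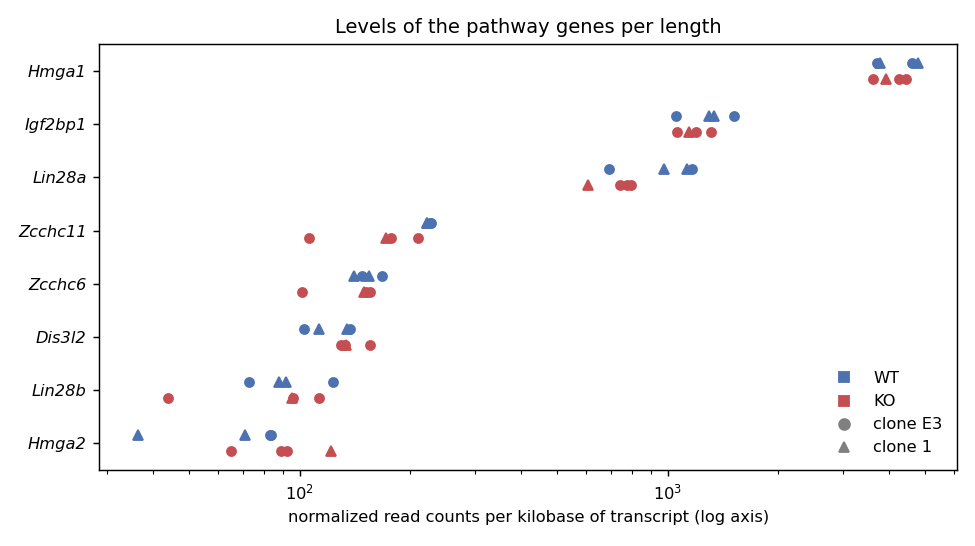
Normalized read counts per kilobase of transcript (x axis, log scale) of the 8 members, ordered by their WT mean, with WT in blue, KO in red, circles for clone E3 and triangles for clone 1. Hmga1, Igf2bp1 and Lin28a lie at 607 or higher in every library, and the other 5 members at 228 or lower.

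Of the 28 pairs of members, 14 had a Pearson correlation above 0 and 14 below 0 over the 8 libraries on the log2 scale, from 0.88 for Zcchc11 and Zcchc6 to -0.72 for Dis3l2 and Lin28b. These values share libraries, depth and the clone correction and describe these libraries. Among 9937 transcripts with a mean of at least 100, the patterns most like Lin28a were those of Srl (r = 0.994), Slc4a5 (r = 0.978) and Ddx24 (r = 0.975). Those most like Lin28b were Trdmt1 (r = 0.993), Topors (r = 0.992) and Arhgap11a (r = 0.992).

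Genes that make or regulate let-7 were described by counts. All 23 listed genes of miRNA processing and let-7 regulation were present. Of these, 0 were higher and 1 was lower at an unadjusted p under 0.05 by limma, where 4.62% of all transcripts were higher and 4.46% lower. Their median log2 fold change was -0.205, beside -0.000357 for all transcripts, and 19 of 23 lay below 0. With the day as a block over 6 libraries the median was -0.106 with 16 of 23 below 0, as it was in the same 6 libraries without the block. This agreement was fixed by the design: with 1 library of each genotype a day, the block cannot change a fold change by limma. The median length of their transcripts was 4519 nt, against 2991 nt for all. The gene that differed was Dicer1, the nuclease that cuts let-7 from its precursor, with 2166, 2317, 1535 and 1800 normalized counts in the KO libraries against 2992, 2796, 2531 and 2644 in the WT libraries. The KO libraries were all below the WT libraries, at -0.51 (SE 0.17) on the log2 scale with an adjusted p of 0.469 by limma, short of the 1.5-fold limit. Its unadjusted p was over 0.05 without KO replicate 4 and without WT replicate 2. Trim25, a ubiquitin ligase that binds the let-7 precursor with Lin28a, had 3895 ± 147 (SD, n = 4) in KO against 4299 ± 97.9 (SD, n = 4) in WT. Its groups did not overlap, yet the difference was small, at -0.14 on the log2 scale with an adjusted p of 0.679 by limma.

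Of 43 genes known as let-7 targets, 42 were present and Acvr1c was not. The list shares 7 genes with the other lists, Dicer1 and Ago1 with the genes that make or regulate let-7, Igf1r, Insr and Irs2 with the insulin list, and Igf2bp2 and Igf2bp3 with the relatives of the members, and these are counted in both. At an unadjusted p under 0.05 by limma, 3 were higher and 6 lower in KO, together 21.4% of the list beside 9.09% of all transcripts. This list, like the other lists, was chosen with earlier results of these data known, so its share is a description and not an independent comparison. The share was 9.52%, with 0 higher and 4 lower, both without WT replicate 3, where it was 9.56% for all transcripts, and without KO replicate 4, where it was 3.26% for all. The list's median log2 fold change was -0.123, with 27 of 42 below 0 and a median transcript length of 4708 nt. This median was -0.0702 without KO replicate 1 and -0.0639 with the day as a block over 6 libraries. By the fold change criterion 0 were higher and 2 lower, Prtg and Nr6a1, where 1.76% of all transcripts were higher and 2.49% lower. Prtg, which encodes the cell surface protein protogenin, had 221, 250, 323 and 193 normalized counts in KO and 481, 378, 498 and 502 in WT. Its log2 fold change was -0.95 (SE 0.20) with an adjusted p of 0.408 by limma, and the criterion was met in each of the 8 fits that left out 1 library. Nr6a1, a nuclear receptor that represses pluripotency genes, had 752, 814, 919 and 704 in KO and 1393, 1068, 1279 and 1142 in WT. Its log2 fold change was -0.62 (SE 0.15) with an adjusted p of 0.437 by limma. It missed the 1.5-fold limit without KO replicate 4 and without WT replicate 1, and its 3′UTR holds 8 of the 7-base let-7 matches against 2 in Prtg.

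Smaller differences among the targets included the zinc finger genes Plagl1 (-0.43) and Plagl2 (-0.37) and the phosphate transporter Slc20a1 (0.54), each a log2 fold change with an unadjusted p under 0.05 by limma. Leaving out KO replicate 4 lost that p for each of the 3. The 3′UTR of Plagl1 holds 0 of the 7-base let-7 matches and that of Plagl2 1. Dicer1, on this list and lower too, holds 0. The change of Slc20a1, which has 1 let-7 match, was upward, from 5237 ± 1152 (SD, n = 4) in WT to 7571 ± 806 (SD, n = 4) in KO, with overlapping groups.

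In the insulin, IGF, PI3K and mTOR list, a pathway that let-7 and Lin28 are known to act on, 24 of 25 genes were present. By limma 0 of them were higher at an unadjusted p under 0.05, and 0 met the criterion in either direction. The list's median log2 fold change was -0.156, or -0.0541 without WT replicate 3 and -0.0751 without KO replicate 1, and its transcripts had a median length of 6400 nt.

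Among 23 relatives of the members by protein family, all present, 1 was higher and 1 lower at an unadjusted p under 0.05 by limma, and the median log2 fold change was -0.00198. Hmgn2, a nucleosome-binding protein, met the criterion, with 2894, 2031, 1637 and 1994 normalized counts in KO and 1364, 1579, 1001 and 1506 in WT. Every KO library lay above every WT library, at 0.66 (SE 0.23) on the log2 scale with an adjusted p of 0.487 by limma. It no longer met the criterion without KO replicate 1 or without WT replicate 3. Igf2bp3, a close relative of Igf2bp1 and itself a let-7 target, was lower, with 473 ± 109 (SD, n = 4) in KO against 700 ± 138 (SD, n = 4) in WT and a log2 fold change of -0.58. Its unadjusted p of 0.0430 by limma stayed under 0.05 in 2 of the 8 fits that left out 1 library. With the day as a block over 6 libraries, 1 of the 104 pathway genes present met the criterion instead of 3: Prtg did (-0.86), while Nr6a1 (-0.52) and Hmgn2 (0.49) fell short of the 1.5-fold limit, and the same 6 libraries without the block also gave 1.

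**Figure D5:**
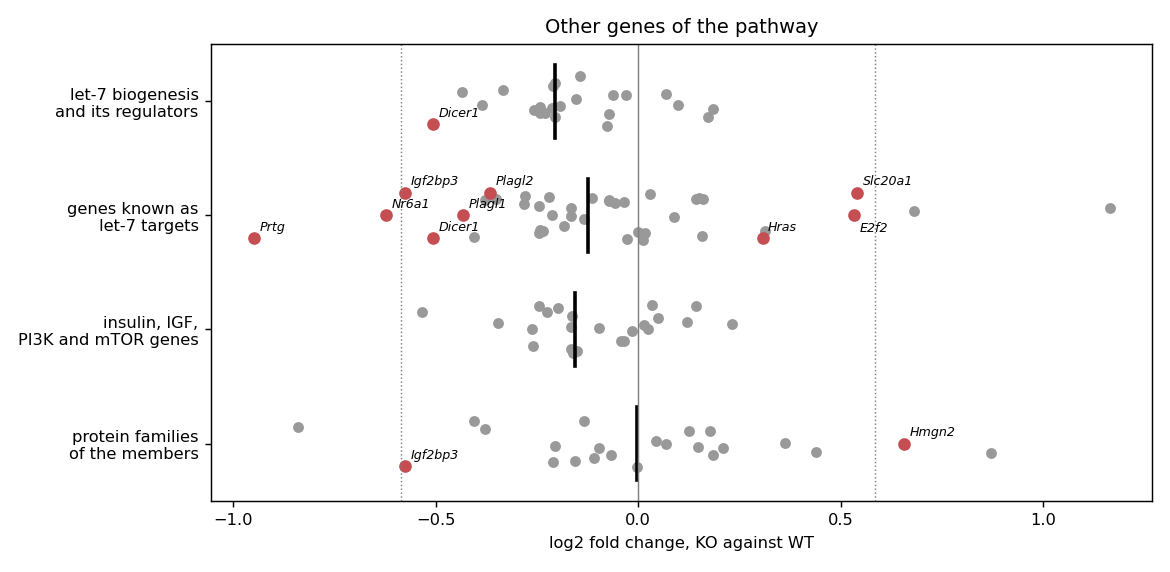
Log2 fold change of KO against WT (x axis) for the genes reported of the 4 lists other than the members and Trim71, with genes at an unadjusted p under 0.05 by limma in red, list medians as black bars, and dotted lines at a fold change of 1.5. Of the red genes, Prtg and Nr6a1 lie past the limit on the lower side and Hmgn2 on the higher side.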

How the data were processed

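The authors aligned 2 × 100 nt reads of an unstranded poly-A kit to mm10 with TopHat2, counted reads per RefSeq transcript in Partek, normalized them with DESeq2 and applied a batch correction. That the batch was the clone was inferred from the values. Values under 1 were set to 1, and transcripts whose higher group mean was below 10 were dropped. The submitters' processing notes name Bowtie2 2.2.1 and Partek 6.6. The deposited values are therefore a signal: normalized read counts after an additive correction. Whole reads were recovered from them for 13478 transcripts (99.4%), with 98.96% of those given back within 2 units of the sixth digit; recovery was tested on simulated data.

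The members and gene lists were chosen with earlier results of these data known. The rule named all members, Trim71, Trim25, up to 6 genes of each list with the smallest unadjusted p under 0.05, and the 3 transcripts most correlated with Lin28a and with Lin28b. Not every value under this rule is reported here.

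Log2(value + 1) was fitted over all transcripts with limma 3.58.1 in R 4.3.3, with genotype and clone as terms and Benjamini-Hochberg adjustment. Fold changes on this scale understate those of low transcripts. Exact two-sided permutation tests used Python 3.11.15, on deposited values and without regard to clone or day. Alternatives changed the pseudocount (10), a filter (mean of at least 50), the terms, the scaling, the clone correction and the libraries. 0 per-sample columns were left unused.

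The labels give both genotypes 1 library on each of days 3, 4 and 5. With the correction undone, deviations from the group means of same-day libraries had correlations of 0.539, 0.627 and 0.519, where the 13 other pairs had a median of -0.178. On the deposited values they were 0.419, 0.54 and -0.228 (day 5), where the other pairs had a median of 0.0496. Each same-day pair also shared its clone, while the other pairs included pairs of different clones. The contrast with the correction undone thus mixes a shared day with a shared clone. The day was taken to pair the libraries since the labels give it.

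Sequences are from RefSeq (miRNAs) and GENCODE M21 (GRCm38), to which 13043 of 13558 transcripts (96.2%) were matched, 485 through an older symbol. Each gene's principal transcript with the longest 3′UTR was used.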

Additional observations from a re-analysis of the deposited data

Results flagged for a closer look

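2 values lay far from the other libraries of their group by Dixon's test among 38 groups of 4 values checked, where chance gives about 1.9. Zcchc6 in KO replicate 3 had 595 normalized counts, against 878 to 909 in the other KO libraries. Prtg in WT replicate 2 had 378 normalized counts, against 481 to 502 in the other WT libraries. With the clone correction undone, the gap as a share of the range fell from 0.902 to 0.551 for Zcchc6 and from 0.831 to 0.350 for Prtg, both below the critical value.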

How the results depend on the processing

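Of 160 combinations of a member's log2 fold change with 1 of 20 alternative settings, 147 kept its direction and its side of the criterion. 0 members met the criterion; 1 did with limma-voom and the replicate block by day (Zcchc11, -0.63), without KO replicate 2 (Zcchc11) and without WT replicate 3 (Lin28a), so that leaving out 1 library gave 0 to 1. Left-out fits gave -0.69 to -0.22 for Lin28a, -0.31 to 0.12 for Lin28b, 0.07 to 0.28 for Dis3l2, -0.59 to -0.29 for Zcchc11, -0.24 to -0.01 for Zcchc6, -0.15 to 0.02 for Hmga1, -0.03 to 0.57 for Hmga2 and -0.29 to -0.01 for Igf2bp1. Hmga1 turned to 0.06 with the replicate block by day, on deposited values, with limma-voom and with the correction undone, and also in the same 6 libraries without a block, by limma and by limma-voom (0.06). By limma the block itself cannot change this value, since each day has 1 library of each genotype. With limma-voom, Dis3l2 had an unadjusted p of 0.347 over 8 libraries, 0.216 in the 6 libraries and 0.0423 with the block.

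The count of transcripts past the criterion was 576, and 315 with a mean of at least 50, 382 on untransformed values, 1015 with the replicate block by day, 1076 with limma-voom and that block, 1025 with the correction undone and that block, and 260 to 835 with 1 library left out (260 without KO replicate 4). For the 104 pathway genes present it was 3, and 5 with limma-voom, 1 with the replicate block by day, 1 in the same 6 libraries without a block by limma and 1 by limma-voom, and 2 to 9 with 1 library left out (9 without WT replicate 2, and 5 without WT replicate 4). 0 members had an interaction of genotype and clone at an unadjusted p under 0.05 by limma; 1 had at a pseudocount of 10 and with limma-voom (Hmga2), and 0 to 1 with 1 library left out (Lin28a without WT replicate 2, Hmga2 without WT replicate 4). Leaving out KO replicate 4, it could not be fitted, since clone 1 then has no KO library. The cause of these changes was not tested. The fits of the 6 libraries without a block, and of the undone correction with the block, were chosen after seeing the data. At 136 to 22005 reads a library the members were well covered, and the spread between 4 libraries a group set the precision: intervals of Lin28a, Lin28b, Zcchc11 and Hmga2 reach past a fold change of 1.5.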

Other observations

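Seed matches were also set against the fold change over all matched transcripts other than the members and Trim71, as a description chosen after the data were seen. The 150 transcripts with at least 2 let-7 matches had a median log2 fold change of -0.0459 (-0.00914 without WT replicate 3, -0.0199 without KO replicate 1, -0.0779 without KO replicate 4 and -0.00981 with the day as a block) with 57.3% below 0, and the 11778 without a match one of 0.00275 with 49.6% below 0. The 3′UTRs of the former were longer, with a median of 3575 nt against 907 nt. The 1945 transcripts without a match whose 3′UTR was of similar length (median 3067 nt) had a median of -0.08 (-0.0508 without KO replicate 3) with 62.2% below 0. Transcripts with at least 1 of the 8-base matches (438) had a median of -0.0317, which was -0.00375 without WT replicate 3, -0.0144 without KO replicate 1, -0.0691 without KO replicate 4 and -0.0111 with the day as a block.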
